A study of Mus musculus with 18 samples.

Results

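Ccl3, Ccl4, Ccl5, Ccl6 and Ccl9 encode the chemokines of the macrophage inflammatory protein type in the mouse. The 5 genes were taken by symbol from the RPKM table (reads scaled to transcript length in kilobases and to the mapped reads of the library), which lists 20298 genes, and all 18 libraries were used. The study set wild type (WT) monocytes against those of double knock-in (DKI) animals, whose Stat5a and Stat5b genes both carry N-domain mutations that leave STAT5 dimers intact but prevent tetramers, before and during culture with granulocyte-macrophage colony-stimulating factor (GM-CSF). All libraries are labelled C57BL/6, the methods place the DKI mice on C57BL/6J, and the cells are labelled Ly6C+ CCR2+ monocytes. Each of the 6 groups had 3 libraries: fresh monocytes of each genotype without GM-CSF (day 0), and the monocyte-derived cells (MDCs) of each genotype cultured in GM-CSF at 20 ng/mL until day 3 or day 6. The knock-in changes both Stat5 genes in every cell of the animal, and it is not read out by the RPKM of Stat5a or Stat5b, so the genotype labels could not be checked on transcript levels. The RNA-seq is described as combined from 3 independent experiments, and no label ties a library to an experiment or an animal, so the p-values below measure the spread between the libraries of a group.

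The libraries held 29.5 to 43.2 M mapped reads, with a median of 36.4 M, as recovered from the smallest steps between RPKM values. The tissue label reads liver and the methods describe bone marrow. The 4 hepatocyte markers (Alb, Apoa1, Ttr and Serpina1a) summed to at most 0.047 RPKM in every library. The 6 monocyte markers (among them Ccr2, Csf1r and Ly6c2) summed to 2361 to 3262 RPKM on day 0, and the 6 neutrophil markers summed to 703 to 989 RPKM on day 0 and to 0.859 to 262 RPKM in the cultures. The 5 eosinophil and basophil markers (among them Prg2) summed to 166 to 556 RPKM on day 0 and to 2.73 to 122 RPKM in the cultures. The 4 B and plasma cell markers (among them Jchain) summed to 31.9 to 256 RPKM and to 0.233 to 4.34 RPKM. The part of these cells in the levels of the 5 genes was not tested. One DKI library of day 3, replicate 1, stood apart in its interferon-stimulated genes (8 genes chosen after their values were seen), which summed to 4614 RPKM against 90.0 and 420 RPKM in the other DKI libraries of that day. Replicate 1 of days 3 and 6 also carries an earlier year in its library name than the other libraries do.

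Chemokines of the CC class are small secreted proteins that carry a pair of adjacent cysteines, and they draw leukocytes along a gradient by binding G protein-coupled receptors. CCR1 is a receptor of Ccl3, Ccl5, Ccl6 and Ccl9, and CCR3 also binds Ccl5. Ccl3 and Ccl4 are released within hours by activated monocytes and macrophages, Ccl5 is known from T cells, NK cells and activated myeloid cells, and Ccl6 and Ccl9 are rodent chemokines made by macrophages and other myeloid cells. Ccl6 and Ccl9 are made with a longer amino end, which proteases can trim to a more potent form.

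The coding stretches around the cysteine pair are shown because they define the class and show how alike the 5 transcripts are. The stretches of 42 bases come from the GENCODE vM21 transcripts on GRCm38 (the mm10 build of the files), are written 5′ to 3′ on the coding strand, and carry the 2 adjacent cysteine codons in capitals.
Ccl3: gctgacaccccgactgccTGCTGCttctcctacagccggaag
Ccl4: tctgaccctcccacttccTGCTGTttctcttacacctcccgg
Ccl5: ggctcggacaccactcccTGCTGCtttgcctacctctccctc
Ccl6: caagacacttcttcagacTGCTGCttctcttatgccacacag
Ccl9: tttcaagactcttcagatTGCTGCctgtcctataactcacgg
The stretches lie in coding exons on chromosome 11. That of Ccl3 is in exon 2 of 3 at chr11:83648634-83648675 on the minus strand, that of Ccl4 in exon 2 of 3 at chr11:83663464-83663505 on the plus strand, and that of Ccl5 in exon 2 of 3 at chr11:83529224-83529265 on the minus strand. For Ccl6 and Ccl9, which have 4 exons, the pair falls in exon 3, at chr11:83589368-83589409 and chr11:83575908-83575949, both on the minus strand. The first cysteine of the pair is codon 33 or 34 in Ccl3, Ccl4 and Ccl5, codon 50 in Ccl6 and codon 57 in Ccl9. Over the coding sequences, the best local alignment was 82.2% identical for Ccl6 and Ccl9 over 191 columns and 70.1% for Ccl3 and Ccl4 over 281 columns. The longest run of bases shared by the transcripts of any pair was 25, in Ccl6 and Ccl9, and the other pairs shared runs of 9 to 13 bases.

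The 5 genes lie within 138.9 kb of chromosome 11, in the order Ccl5, Ccl9, Ccl6, Ccl3 and Ccl4. Ccl4 is on the plus strand and the other 4 genes are on the minus strand. Stat5b, one of the edited genes, is on the same chromosome, 17.1 Mb away. The annotated transcripts span chr11:83525778-83530518 for Ccl5, chr11:83572919-83578636 for Ccl9, chr11:83587882-83593087 for Ccl6, chr11:83647844-83649355 for Ccl3 and chr11:83662584-83664683 for Ccl4.

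The promoters of Ccl6 and Ccl9 are shown because the levels of these neighbouring genes ran together over the libraries, as described further on. Each is the 250 bases before the RefSeq start (GRCm38.p6), 5′ to 3′ on the minus strand of the gene, at chr11:83593088-83593337 for Ccl6 and chr11:83578637-83578886 for Ccl9, and capitals mark the bases of the best local alignment between them.
Ccl6: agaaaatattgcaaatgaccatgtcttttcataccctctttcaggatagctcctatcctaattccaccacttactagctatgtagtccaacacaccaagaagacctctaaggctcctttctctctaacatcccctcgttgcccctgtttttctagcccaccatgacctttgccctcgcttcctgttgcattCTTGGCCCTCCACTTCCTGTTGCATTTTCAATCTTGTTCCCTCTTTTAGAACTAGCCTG
Ccl9: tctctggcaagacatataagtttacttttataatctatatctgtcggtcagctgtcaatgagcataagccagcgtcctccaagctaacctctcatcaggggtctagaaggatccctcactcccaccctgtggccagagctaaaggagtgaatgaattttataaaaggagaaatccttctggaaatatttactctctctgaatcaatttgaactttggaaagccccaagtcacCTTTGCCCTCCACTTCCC
The aligned block ran from 59 bases before to 15 bases after the start of Ccl6 and from 18 bases before to 49 bases after that of Ccl9. It held 59 identical bases in 74 columns (79.7%) with 7 gap positions. Promoter entries were found for 3 of the 5 genes (Ccl3, Ccl6 and Ccl9). Neither TTCNNNGAA, the letters of a STAT site, nor TTC and GAA set 4 bases apart was in any of these 3 windows on either strand, and 7.02% and 5.85% of all 32851 promoters of this length held them. GAGGAA, a core read by PU.1, was present once, in Ccl3, against 23.3% of all promoters. The window of Ccl9 held TGANTCA (AP-1, 6.75% of promoters), GGG followed by CC after 5 free bases (NF-kB, 45.8%) and TATAAA (12.4%), the last at 3 places, 2 of which overlap. The window of Ccl6 held none of the 6 motifs searched.

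Before GM-CSF, the levels of all 5 genes overlapped between WT and DKI monocytes, and 4 of them were among the well expressed genes. Ccl3 was measured at 525, 104 and 504 RPKM in WT monocytes of day 0 (replicates 1, 2 and 3) and at 513, 72.1 and 360 RPKM in DKI monocytes. Ccl4 was at 253, 46.1 and 177 RPKM in WT and at 263, 22.4 and 146 RPKM in DKI monocytes. Replicate 2 was the low library for both genes in both genotypes, and the genotypes overlapped. Rgs1, a regulator that shortens G protein signalling, was also lowest in replicate 2 (7.80 RPKM in WT and 10.5 RPKM in DKI) and highest in replicate 1 (155 and 148 RPKM); its part in the spread of Ccl3 and Ccl4 was not tested.

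Ccl9 was the steadiest of the 5 on day 0, at 213, 211 and 201 RPKM in WT and at 201, 199 and 231 RPKM in DKI monocytes. Ccl6 was measured at 229, 369 and 362 RPKM in WT and at 201, 314 and 367 RPKM in DKI. Both genes overlapped between the genotypes. Ccl5 was low in all 6 libraries of day 0, at 2.01, 3.38 and 2.14 RPKM in WT and 1.40, 1.44 and 3.31 RPKM in DKI, which correspond to 29 to 76 reads a library.

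None of the 5 genes passed the test between DKI and WT monocytes of day 0 by limma on log2(RPKM + 1), with 3 libraries against 3, Benjamini-Hochberg adjustment over all genes tested, and a call at adjusted p under 0.05 and a fold above 1.5. All 5 genes passed the filter on low values, a mean above 2 RPKM in a group compared, in every comparison. The log2 differences (DKI minus WT) were -0.35 for Ccl3 (95% interval -2.62 to 1.93), -0.41 for Ccl4 (-2.94 to 2.12), -0.24 for Ccl5 (-0.96 to 0.49), -0.13 for Ccl6 (-0.85 to 0.58) and 0.01 for Ccl9 (-0.26 to 0.28). Of all 9179 genes tested, 0 were called (0%) and 44 had an unadjusted p under 0.05. This share, 0.479%, lay under the limit of 0.05 itself, so the p-values of this unpaired fit were conservative (too large). None of the 5 genes had values that did not overlap between genotypes, and 1.03% of all genes had. The interval of Ccl9 was narrow enough to leave out a fold of 1.5 in either direction, and those of Ccl3 and Ccl4 were not. Libraries with the same number ran together on day 0, and within pairs DKI was at 0.977, 0.691 and 0.714 times the WT level for Ccl3 and at 1.04, 0.487 and 0.825 times for Ccl4. With the replicate number as a block, the SE of Ccl3 was 0.11 in place of 0.94 and that of Ccl4 0.20 in place of 1.04, and neither was called (adjusted p = 0.999877 by limma).

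**Figure D1:**
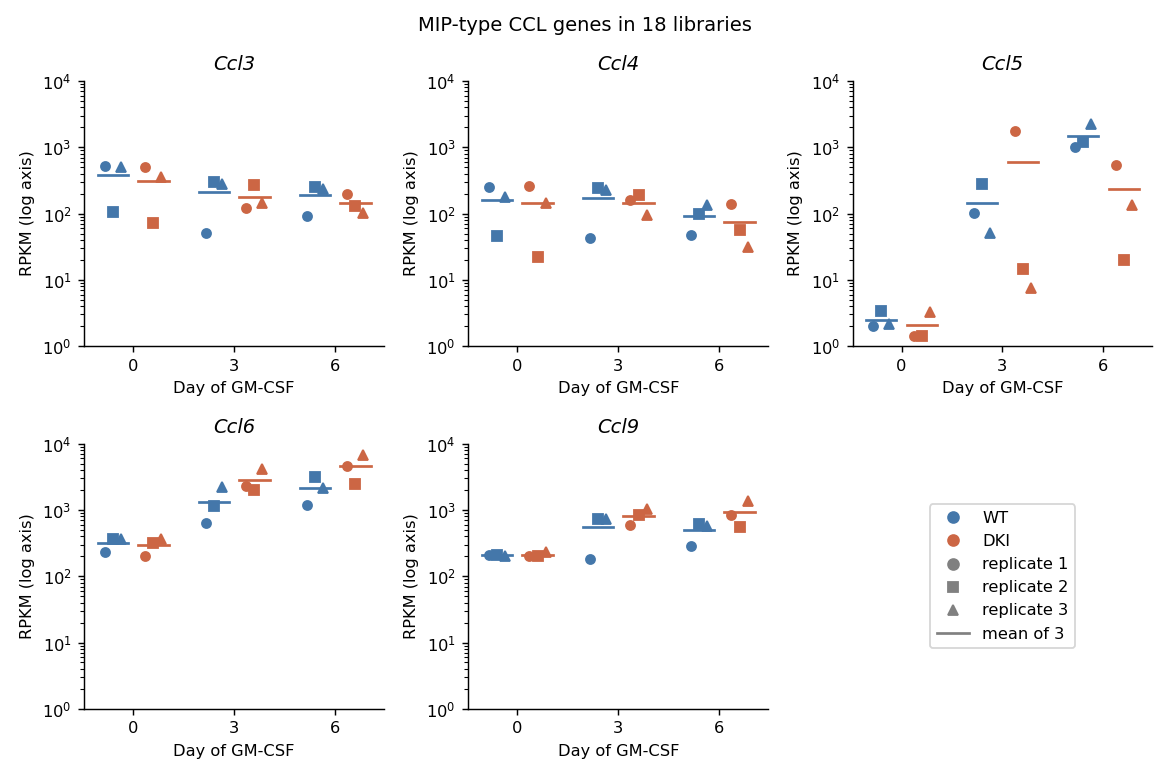
RPKM of the 5 genes (log axis, the same range in each panel) by day of GM-CSF, with WT in blue, DKI in orange, one symbol per replicate number and a line at the mean of 3 libraries. Ccl6 was between 201 and 369 RPKM on day 0 and at 645 RPKM or more in the cultures, Ccl5 was at most 3.38 RPKM on day 0 and between 7.42 and 2285 RPKM in the cultures, and Ccl3 and Ccl4 overlapped between all days.

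In culture with GM-CSF, Ccl6 rose in both genotypes, Ccl5 rose in WT cells and Ccl9 rose in DKI cells, whereas Ccl3 and Ccl4 did not pass the test in either. Ccl6 reached 645, 1143 and 2212 RPKM in WT MDCs of day 3, all above the WT monocytes of day 0. The log2 fold change from day 0 to day 3 in WT was 1.91 (SE 0.45, adjusted p = 0.0121 by limma). In DKI MDCs of day 3 Ccl6 was at 2342, 2017 and 4103 RPKM, and its log2 fold change was 3.23 (SE 0.37, adjusted p = 0.00237 by limma), a rise of 9.40-fold against 3.76-fold in WT. From day 3 to day 6 the log2 change of Ccl6 was 0.77 in WT (SE 0.54, adjusted p = 0.729 by limma). In DKI it was 0.67 (SE 0.50, 0.23 with the replicate number as a block), higher on day 6 in all 3 same-numbered pairs (adjusted p = 0.999 by limma, 0.913 with the block). By mean level Ccl6 ranked 151st and 171st of all genes in WT and DKI monocytes, and it ranked 7th in DKI MDCs of day 6.

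Ccl9 rose with Ccl6 in DKI cells, to 591, 847 and 1037 RPKM on day 3 (log2 fold change 1.93, SE 0.26, adjusted p = 0.00366 by limma). WT MDCs of day 3 had 181, 734 and 722 RPKM, and the lowest of these, replicate 1, lay below all 3 WT monocyte libraries. The WT change of Ccl9 was 1.13 on the log2 scale (SE 0.52, adjusted p = 0.112 by limma) and passed the test when that library was left out (1.80, adjusted p = 0.001 by limma). It is the one WT library of day 3 with the earlier year, so that the year and the library cannot be told apart.

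Ccl5 went from the lowest of the 5 genes to one of the most abundant transcripts in WT cells. It was measured at 102, 281 and 51.3 RPKM in WT MDCs of day 3 and at 1020, 1206 and 2285 RPKM on day 6, so that the 3 WT groups did not overlap with each other. From day 0 to day 3 the log2 fold change in WT was 5.06 (SE 0.56, adjusted p = 0.000729 by limma), and with a pseudocount of 0.1 it was 5.49, since the pseudocount of 1 understates the change of a gene this low on day 0. From day 3 to day 6 the change was 3.62 (SE 0.63, unadjusted p = 0.000904 in limma's fit across all genes), with an adjusted p of 0.596. By mean level Ccl5 ranked 8799th in WT monocytes and 26th in WT MDCs of day 6.

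In DKI MDCs the 3 libraries of day 3 spread over 239-fold in Ccl5, at 1773, 14.6 and 7.42 RPKM. The high library is replicate 1, the same library in which the interferon-stimulated genes summed to 4614 RPKM. Its T and NK cell markers summed to 1.08 RPKM, against 3.14 and 0.202 RPKM in the other libraries of the group. On day 3 this library also had the highest macrophage sum of its group (3399 RPKM against 1136 and 1495), the highest Ly6c2 (775 RPKM against 49.5 and 73.8) and the highest sum of the stroma markers Col1a1, Col1a2 and Sparc (9.31 RPKM against 0.418 and 0.429). The part of these differences in its Ccl5 was not tested. With all 3 libraries the log2 change from day 0 was 4.39 (SE 1.90, adjusted p = 0.114 by limma), and without replicate 1 it was 1.96 (adjusted p = 0.0146 by limma). On day 6 the DKI libraries had 539, 20.1 and 135 RPKM of Ccl5, with replicate 1 again the highest; its stroma markers summed to 33.9 RPKM (0.455 and 0.089 in the others) and its neutrophil markers to 262 RPKM (5.23 and 8.63).

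The values of Ccl3 and Ccl4 overlapped between all days. Ccl3 was at 50.5, 303 and 277 RPKM in WT MDCs of day 3, at 120, 265 and 146 RPKM in DKI MDCs of day 3, at 91.4, 250 and 238 RPKM in WT MDCs of day 6 and at 200, 132 and 102 RPKM in DKI MDCs of day 6. Replicate 1 was the lowest WT library on both days, and it was the highest DKI library on day 6. The log2 change of Ccl3 from day 0 to day 3 was -0.89 in WT (95% interval -2.94 to 1.15) and -0.51 in DKI (-2.26 to 1.25).

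For Ccl4, WT MDCs had 43.2, 240 and 228 RPKM on day 3 and 48.2, 97.5 and 134 RPKM on day 6. DKI MDCs had 158, 189 and 93.7 RPKM on day 3 and 137, 57.1 and 31.3 RPKM on day 6. In the order of their means, each group of Ccl4 overlapped with the next. The change of Ccl4 from day 0 to day 3 was 0.06 in WT (95% interval -1.91 to 2.04) and 0.55 in DKI (-1.50 to 2.60), and its later change, from day 3 to day 6, was -0.63 (WT) and -1.15 (DKI), with the second lower in all 3 same-numbered pairs (adjusted p = 0.999 by limma).

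From day 0 to day 3, 2 of the 5 genes were called higher in WT (Ccl5 and Ccl6), against 20.3% of all 9938 genes tested that were called higher and 43.1% that were called in either direction. In DKI, 2 of the 5 were called higher (Ccl6 and Ccl9), against 13.1% of 9922 genes called higher and 34.2% called in either direction. The values did not overlap between the days for 2 genes in WT (61% of all genes) and for 3 genes in DKI (55.2% of all genes). The median log2 change of the 5 genes was 1.13 in WT and 1.93 in DKI, beside -0.05 and -0.16 over all genes tested. From day 3 to day 6, 0 of the 5 genes were called in either genotype, and 0% of all genes were, while 722 of 9613 genes in WT and 93 of 9540 in DKI had an unadjusted p under 0.05. Only Ccl5 in WT had values that did not overlap between days 3 and 6 (14.3% of all genes in WT and 4.43% in DKI did not overlap).

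The order of the group means differed among the genes. Ccl3 had its highest mean in WT monocytes (378 ± 237 RPKM, SD, n = 3) and its lowest in DKI MDCs of day 6 (144 ± 50.3 RPKM). Ccl5 was highest in WT MDCs of day 6 (1504 ± 683 RPKM), followed by DKI MDCs of day 3 (598 ± 1017 RPKM), whose mean is set by 1 library. Ccl6 and Ccl9 both had their highest means in DKI MDCs of day 6 (4634 ± 2130 and 924 ± 409 RPKM) and the next highest in DKI MDCs of day 3 (2821 ± 1122 and 825 ± 224 RPKM). Neighbours in this order overlapped in their libraries for each of the 5 genes, except at the step from the cultures to day 0 for Ccl5, Ccl6 and Ccl9.

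On day 6 the summed level of the 5 genes was made up of Ccl5 at a mean of 34.5% and Ccl6 at 48.1% in WT MDCs, and of Ccl5 at 3.56% and Ccl6 at 76.7% in DKI MDCs. RPKM is scaled to length, which allows a rough comparison of genes within a library. The lengths used ran from 532 bases for Ccl5 to 3008 for Ccl9. The methods describe a selection of fragments by size, and its effect on short transcripts was not tested. Ccl3 made up 11.8 to 43.5% of the sum on day 0 and 1.21 to 11.2% in the cultures. The share of Ccl6 was 17.0 to 51.5% on day 0, with replicate 2 the highest in both genotypes (50.3 and 51.5%), 39.7 to 59.3% in WT MDCs of day 6 and 73.0 to 80.5% in DKI MDCs of day 6. Ccl5 held 22.6 to 42.6% of the sum in WT MDCs of day 6 and 0.618 to 8.43% in DKI MDCs of day 6. The share of Ccl9 was 10.8 to 11.6% in WT and 13.3 to 17.1% in DKI MDCs of day 6. The shares of Ccl5, Ccl6 and Ccl9 thus did not overlap between the genotypes on day 6, where the RPKM of 37.2% of all genes did not overlap, and no test of the shares was run. They sum to a fixed total, so that a higher share of one gene lowers that of the others.

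**Figure D2:**
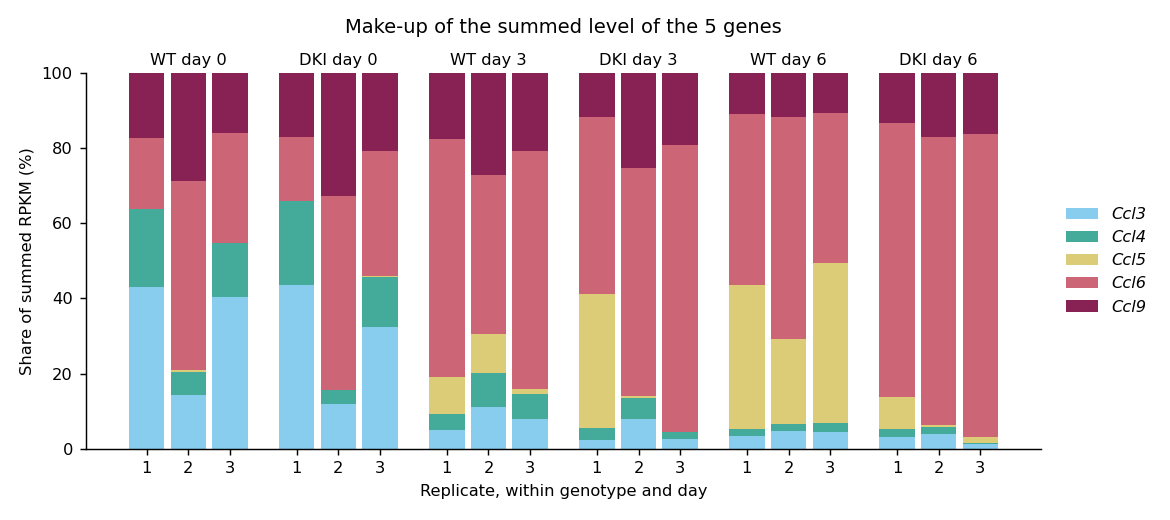
Share of each of the 5 genes in their summed RPKM (percent, stacked to 100) in each of the 18 libraries, by genotype, day and replicate. Ccl3 and Ccl4 take up to 65.8% on day 0, Ccl5 takes 22.6 to 42.6% in WT MDCs of day 6, and Ccl6 takes 73.0 to 80.5% in DKI MDCs of day 6.

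The ratio of Ccl3 to Ccl4 (RPKM over RPKM) was 1.95 to 3.21 in the 6 libraries of day 0, 0.759 to 1.56 in those of day 3 and 1.46 to 3.25 in those of day 6. All 6 libraries of day 3 lay below all 6 libraries of day 0, the range of day 6 held that of day 0 and overlapped that of day 3, and these differences were not tested. The ratio of Ccl6 to Ccl9 was 0.9998 to 1.80 on day 0, 1.56 to 3.96 on day 3 and 3.69 to 5.48 on day 6. All 6 libraries of day 6 lay above all 6 of day 0, whereas on day 3 WT replicate 2 (1.56) lay below WT replicates 2 and 3 of day 0 (1.75 and 1.80), and this was not tested either.

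Over the 18 libraries, which share days and genotypes, Pearson's r of log2(RPKM + 1) was 0.866 between Ccl3 and Ccl4 and 0.924 between Ccl6 and Ccl9. After each group's mean was taken off, r was 0.949 and 0.795. Ccl5 had an r of 0.662 with Ccl6 and 0.500 with Ccl9 over the libraries and of 0.013 and -0.051 within groups. Among 10412 other genes, those with the pattern most like Ccl5 over the 18 libraries were Tbc1d4 (r = 0.965), Snn (0.945) and Arrb2 (0.927). Those most like Ccl6 were Sh3d19 (0.971), Lpp (0.962) and Fzd7 (0.961), and those most like Ccl9 were Pi4k2a (0.935), Lpp (0.934) and Dusp23 (0.933). The nearest genes to Ccl3 (B4galt1, Xpnpep3 and Abraxas1, r = 0.745 to 0.770) and to Ccl4 (Rnf14, Mpdu1 and Ngly1, r = 0.797 to 0.838) were less close.

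The comparison of DKI with WT MDCs asked which chemokine transcripts depend on STAT5 tetramers. None of the 5 genes passed the adjusted test on either day of culture. The study reports higher Ccl5 in WT MDCs, as mRNA and as protein in culture supernatants. Its differential expression was called with edgeR on read counts, not with limma on RPKM. On day 6 Ccl5 averaged 1504 RPKM (WT) against 232 RPKM (DKI), and the means of Ccl6 (2167 and 4634 RPKM) and Ccl9 (495 and 924 RPKM) lay the other way. In bulk RNA, fewer cells that make a transcript and less of it per cell cannot be told apart. Libraries with the same number shared deviations across genotypes on each day, so the ratios are also given within each pair.

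Ccl6 was higher in the DKI library of all 3 pairs on day 3, by 3.63, 1.76 and 1.86-fold. The log2 difference (DKI minus WT) was 1.19 (95% interval -0.09 to 2.47, adjusted p = 0.217 by limma). On day 6 the ratios of DKI to WT were 3.87, 0.786 and 3.17, and the difference was 1.09 (-0.12 to 2.30, adjusted p = 0.210 by limma). The DKI libraries of day 6 held 4667, 2487 and 6746 RPKM of Ccl6 and the WT libraries 1205, 3165 and 2130 RPKM, so that only replicate 2 ran the other way.

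Ccl9 followed the same pattern at a smaller size. It was higher in DKI in all 3 pairs of day 3, by 3.27, 1.15 and 1.44-fold (log2 difference 0.81, 95% interval -0.60 to 2.22, adjusted p = 0.426 by limma). On day 6 it was at 852, 556 and 1364 RPKM in DKI and at 289, 620 and 577 RPKM in WT, higher in DKI in pairs 1 and 3 (log2 difference 0.88, -0.17 to 1.93, adjusted p = 0.236 by limma). For both genes the widest ratio on day 3 was in the pair of the earlier year, and with the other 2 pairs alone the day 3 differences were 0.85 for Ccl6 and 0.36 for Ccl9. Without WT replicate 1 of day 3 alone, that of Ccl9 was 0.14 (adjusted p = 0.836 by limma).

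For Ccl5 the 3 DKI libraries of day 6 (539, 20.1 and 135 RPKM) all lay below the 3 WT libraries (1020, 1206 and 2285 RPKM). WT exceeded DKI by 1.89, 60.0 and 16.9-fold in pairs 1, 2 and 3. The log2 difference was -3.61 (95% interval -6.28 to -0.94, unadjusted p = 0.0156 in limma's fit across all genes), and the adjusted p was 0.0933. On day 3 the pairs went in opposite directions: the DKI library was 17.3-fold higher in pair 1, and WT was 19.3 and 6.91-fold higher in pairs 2 and 3 (log2 difference -0.90, 95% interval -5.71 to 3.90). Without replicate 1 of DKI on day 3 the difference was -3.33 with an adjusted p of 0.0533 by limma. The interferon-stimulated genes summed to 1785 RPKM in DKI replicate 1 of day 6 and to 121 and 182 RPKM in the other DKI libraries of that day. In WT MDCs, with 51.3 to 2285 RPKM of Ccl5, they summed to 8.71 to 57.1 RPKM, and their part in the level of Ccl5 was not tested.

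The 7 T and NK cell markers (Cd3e, Cd3g, Cd8a, Gzma, Klrb1c, Ncr1 and Nkg7) summed to 0.441 to 2.95 RPKM in WT MDCs and to 0.202 to 9.20 RPKM in DKI MDCs. On day 0, where Ccl5 was lowest, their sum was 6.38 to 14.9 RPKM, of which Nkg7 gave 6.30 to 13.6 RPKM. Cd3g gave 8.79 RPKM of the highest DKI sum, in replicate 2 of day 6, and Cd8a was at 0 to 0.038 RPKM on day 0, 0.063 to 0.603 RPKM in WT MDCs and at most 0.032 RPKM in DKI MDCs. The moDC markers (Itgax, Cd209a, Ccr7, Zbtb46 and Flt3) summed to 926 to 1405 RPKM in WT MDCs and to 51.1 to 413 RPKM in DKI MDCs, and the macrophage markers (Adgre1, Mertk, Mrc1, C1qa, C1qb and Stab1) to 184 to 1544 RPKM and 1103 to 3998 RPKM. The monocyte markers (Ccr2, Cd14, Csf1r, Fcgr1, Itgam and Ly6c2, of which Csf1r and Fcgr1 are also counted as macrophage genes by the study) summed to 642 to 1275 RPKM in WT MDCs and to 1432 to 2880 RPKM in DKI MDCs. None of the 6 monocyte markers was called between genotypes on day 3 or day 6; Itgam had medians of 484 (WT) and 817 RPKM (DKI) in the cultures and Csf1r of 330.1 and 523 RPKM, whereas Ccr2 had medians of 146 and 102 RPKM. The monocyte and moDC sums did not overlap between the genotypes in the cultures, and the macrophage sums overlapped only through WT replicate 1 of day 6. Of the 4 platelet and megakaryocyte markers, Pf4, which the study counts among macrophage genes, was at 54.9 to 185 RPKM in WT MDCs and 555 to 2912 RPKM in DKI MDCs. The other 3 overlapped between the genotypes, with medians of 24.9 (WT) and 25.2 RPKM (DKI) for Ppbp, 1.13 and 0.879 RPKM for Itga2b, and 0 and 0 RPKM for Gp9. The part of these lists in the levels of the 5 genes was not tested.

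For Ccl3 and Ccl4 the pairs split by replicate number rather than by genotype. Ccl3 was higher in DKI in pair 1 (2.38-fold on day 3 and 2.19-fold on day 6) and lower in pairs 2 and 3 on both days. The log2 differences of Ccl3 were 0.04 on day 3 (95% interval -1.70 to 1.78) and -0.34 on day 6 (-1.43 to 0.75). Those of Ccl4 were 0.08 (-1.58 to 1.73) and -0.44 (-1.88 to 0.99), with DKI 3.66 and 2.85-fold higher in pair 1 and lower in pairs 2 and 3. None of these intervals is narrow enough to exclude a change of 1.5-fold in either direction.

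**Figure D3:**
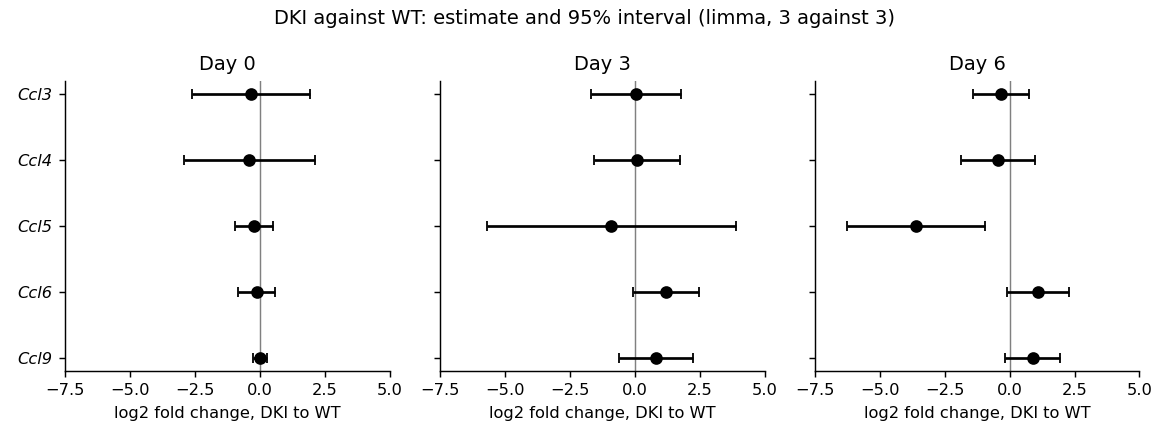
Estimated log2 fold change of DKI to WT (points) with 95% intervals (bars) from limma, 3 libraries against 3, for the 5 genes on days 0, 3 and 6. Ccl5 on day 6 (-3.61, interval -6.28 to -0.94) is the one estimate whose unadjusted interval leaves out 0, and no gene passed the adjusted test.

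Of the 5 genes, 0 were called in DKI against WT on day 3, where 7.42% of 9740 genes were called, and 0 on day 6, where 7.54% of 9842 genes were. The values did not overlap between genotypes for 0 of the 5 genes on day 3 (36.3% of all genes) and for 1 of 5, Ccl5, on day 6 (37.2% of all genes). The median log2 difference of the 5 genes was 0.08 on day 3 and -0.34 on day 6, beside -0.11 and -0.17 over all genes tested. With the replicate number as a block, none of the 5 was called either, and the adjusted p of Ccl5 on day 6 was 0.0868 by limma.

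Whether the genotype difference changed with the day was tested as an interaction. For Ccl6 the difference (DKI minus WT) grew by 1.32 from day 0 to day 3 (95% interval -0.06 to 2.70, adjusted p = 0.340 by limma, 0.0516 with the replicate block) and by 1.22 from day 0 to day 6 (-0.12 to 2.57, adjusted p = 0.338). Ccl5 had an interaction of -3.37 from day 0 to day 6 (-6.14 to -0.60, adjusted p = 0.190 by limma), which was called without DKI replicate 1 of day 6 (-4.48, adjusted p = 0.0336). Without DKI replicate 2 of day 6 it was -2.14 (adjusted p = 0.124), and over all libraries left out in turn the adjusted p ranged from 0.0336 to 0.378. None of the 5 genes was called in the interaction of day 3 with day 0 (2.91% of all genes), of day 6 with day 0 (2.8%) or of day 6 with day 3 (0%, with 89 of 9985 genes at an unadjusted p under 0.05). The last share, 0.891%, lay under that limit itself, so those p-values were conservative.

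Among the receptor and binding protein genes described here, Ccr1 was well expressed in all groups, and Ccr3, Ackr1, Ackr2 and Ccr1l1 were near 0. Ccr1, a receptor of Ccl3, Ccl5, Ccl6 and Ccl9, was at 91.8, 85.7 and 107 RPKM in WT MDCs of day 3 and at 145, 198 and 199 RPKM in DKI MDCs. The groups did not overlap, and the log2 difference was 0.91 (SE 0.20, adjusted p = 0.0463 by limma), which lost the call with the replicate block (adjusted p = 0.0701). The interaction of day 3 with day 0 for Ccr1 was 0.99 (SE 0.39, adjusted p = 0.243 by limma) and was called with the block (adjusted p = 0.0245). Of all genes, 10.2% were called in this interaction with the block. On day 6 Ccr1 was at 99.7, 144 and 54.6 RPKM in WT and at 150, 188 and 181 RPKM in DKI, also without overlap (log2 difference 0.89, SE 0.35, adjusted p = 0.160 by limma).

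Ccr3 reached 2.69 RPKM in 1 DKI library of day 6 and was under 1.2 RPKM elsewhere. Ackr1 and Ackr2, which bind chemokines without G protein signalling, and Ccr1l1 stayed at or under 0.500 RPKM in all libraries.

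**Figure D4:**
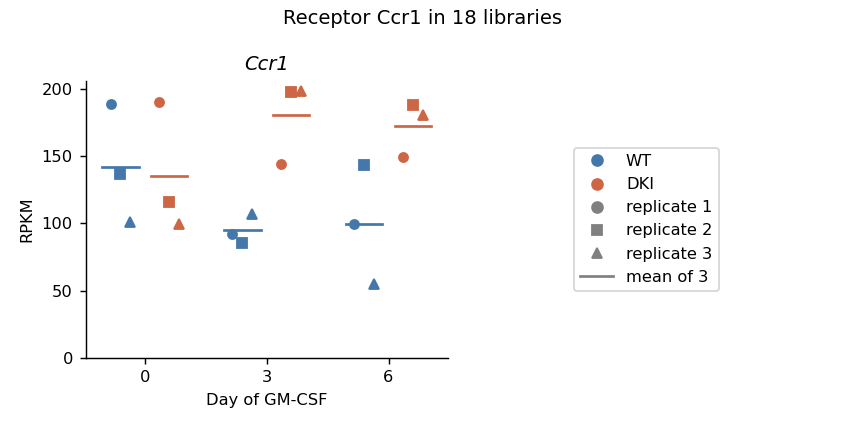
RPKM of the receptor Ccr1 (linear axis from 0) by day of GM-CSF, with WT in blue, DKI in orange, one symbol per replicate number and a line at the mean of 3 libraries. The genotypes overlap on day 0, and the DKI libraries of day 3 (145, 198 and 199 RPKM) and of day 6 lie above the WT libraries of the same day.

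Among the 6 receptor signalling genes (Gnai2, Gnai3, Arrb1, Arrb2, Rgs1 and Rgs2), 0 were called between genotypes on day 3 or day 6, where 7.42% and 7.54% of all genes were. Their median log2 difference was -0.19 on day 3 and -0.55 on day 6, beside -0.11 and -0.17 over all genes. Rgs1 was at 38.2, 71.9 and 61.7 RPKM in DKI and at 10.4, 25.5 and 27.3 RPKM in WT MDCs of day 6, and it passed the test with the replicate block (adjusted p = 0.0289 by limma) and not without it (0.0767). With the block, the interaction of day 6 with day 0 was also called, higher for Rgs1 (1.47, adjusted p = 0.0169 by limma, 0.662 without) and lower for Gnai3 (-0.73, adjusted p = 0.0439 by limma, 0.303 without). The block called 7.31% of all genes between genotypes on day 6 and 13.5% in that interaction. From day 0 to day 3, 1 of the 6 was called higher and 1 lower in WT (20.3% and 22.8% of all genes). In DKI, 0 were called higher and 1 lower (13.1% and 21.1% of all genes). Arrb1, a beta-arrestin that takes receptors out of signalling, rose from day 0 to day 3 in WT (log2 change 1.05, SE 0.22, adjusted p = 0.00759 by limma) and had a change of 0.03 in DKI (SE 0.33). Rgs2 went from 57.5 to 185 RPKM in WT monocytes to 20.7 to 25.7 RPKM in WT MDCs of day 3, and from 67.9 to 168 RPKM to 15.7 to 47.1 RPKM in DKI.

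Of the 6 genes for storage and processing of chemokines, 5 passed the filter, of which 1 was called higher and 2 lower from day 0 to day 3 in WT (20.3% and 22.8% of all genes) and 1 higher and 3 lower in DKI (13.1% and 21.1% of all genes). Mmp12, the macrophage elastase, which can trim chemokines, rose from at most 2.78 RPKM on day 0 to 463 to 5498 RPKM on day 3, with log2 changes of 9.92 in WT (SE 0.58) and 9.72 in DKI (SE 0.89). Elane and Ctsg, granule proteases that also cut chemokine ends, fell in both genotypes, Elane by 6.54 on the log2 scale in WT (adjusted p = 0.00269 by limma) and by 4.55 in DKI (adjusted p = 0.027). Both are made in neutrophil and monocyte precursors, and Elane is one of the neutrophil markers whose sum fell in culture. Srgn, the proteoglycan on which chemokines are stored, was the third gene called lower in DKI (-1.25, SE 0.23, adjusted p = 0.00939 by limma), with a change of -0.18 in WT. It was at 471 to 705 RPKM in WT and at 230 to 338 RPKM in DKI MDCs of day 3 (adjusted p = 0.056 between genotypes). None of the 6 was called between genotypes on either day (7.42% and 7.54% of all genes were). With the replicate block, the interaction of day 3 with day 0 was called lower for Srgn (-1.07, adjusted p = 0.0284 by limma, 0.105 without the block) and Dpp4 (-1.34, adjusted p = 0.0241 by limma, 0.431 without), and that of day 6 with day 0 for Srgn (-0.99, adjusted p = 0.0284 by limma, 0.245 without). The block called 10.2% of all genes in the interaction of day 3 with day 0 and 13.5% in that of day 6 with day 0. Dpp4, which removes the first residues of Ccl5 and other chemokines, was at 22.4, 5.95 and 17.5 RPKM in WT and at 4.55, 3.27 and 1.96 RPKM in DKI MDCs of day 6 (log2 difference -1.81, SE 0.48, adjusted p = 0.0697 by limma).

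The other CCL ligands in the table include genes called in both directions in the same libraries. Of the 16 listed, 7 passed the filter on low values on day 3 and on day 6, which requires a mean above 2 RPKM in 1 of the groups compared. On day 3, 3 were called higher and 2 lower in DKI (3.21% and 4.21% of all genes), and on day 6, 2 higher and 2 lower (2.72% and 4.82% of all genes). With the replicate block, 4 were called higher and 2 lower on day 6, where 7.31% of all genes were called in either direction. Ccl2 and Ccl7, ligands of CCR2, were called higher on both days, and Ccl2 was at 1095, 1706 and 529 RPKM in DKI and at 27.9, 45.3 and 11.1 RPKM in WT MDCs of day 3. Ccl17 and Ccl22, ligands of CCR4, were called lower on both days, and Ccl17 was at 12.5, 42.2 and 68.0 RPKM in DKI and at 3473, 5758 and 5500 RPKM in WT MDCs of day 3. The median log2 difference of the 7 genes was 5.30 on day 3 and 4.56 on day 6. Whether these ligands differ from the 5 genes in their response was not tested.

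The genes around the cluster went in different directions. Of 10 genes that start within 200 kb of a member, 7 had a mean above 2 RPKM in a group. Of these, 6 were fitted from day 0 to day 3. In WT 0 were called higher (20.3% of all genes) and 3 lower (1700020L24Rik, Mmp28 and Taf15), where 22.8% of all genes were called lower, and in DKI 1 was called higher (Wfdc17), where 13.1% of all genes were, and the same 3 were called lower, against 21.1% of all genes. The annotated spans of 1700020L24Rik and Mmp28 overlap, so their reads may be shared. Both passed the filter only through day 0, with means of 19.5 and 2.69 RPKM in WT and 17.4 and 2.12 RPKM in DKI. The filter thus admitted them only as genes that fell. Wfdc17, a small secreted protein of macrophages, was at 160, 397 and 696 RPKM in WT and at 457, 602 and 576 RPKM in DKI MDCs of day 3 (log2 change from day 0 of 0.69 in WT and 1.23 in DKI, the second with an adjusted p of 0.00945 by limma). Taf15, an RNA-binding protein made in most cells, fell by 0.86 on the log2 scale in WT and by 1.33 in DKI.

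Heatr9, whose annotated end lies 3.3 kb from that of Ccl5, was the one neighbour called between genotypes (4.82% of all genes were called lower on day 6). It was at 2.39, 2.37 and 3.68 RPKM in WT and at 0.390, 0.109 and 0.647 RPKM in DKI MDCs of day 6 (log2 difference -1.47, SE 0.26, adjusted p = 0.0303 by limma). Its levels were low, and the pseudocount of 1 understates the fold. It passed the filter on low values only through WT MDCs of day 6 (mean 2.82 RPKM, against 0.382 RPKM in DKI). The filter thus admitted it only as a gene lower in DKI. Ccl5 and Heatr9 both had lower, non-overlapping values in DKI on day 6. The values of 37.2% of all genes did not overlap on that day, in either direction, and a relation between Ccl5 and Heatr9 was not tested.

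**Figure D5:**
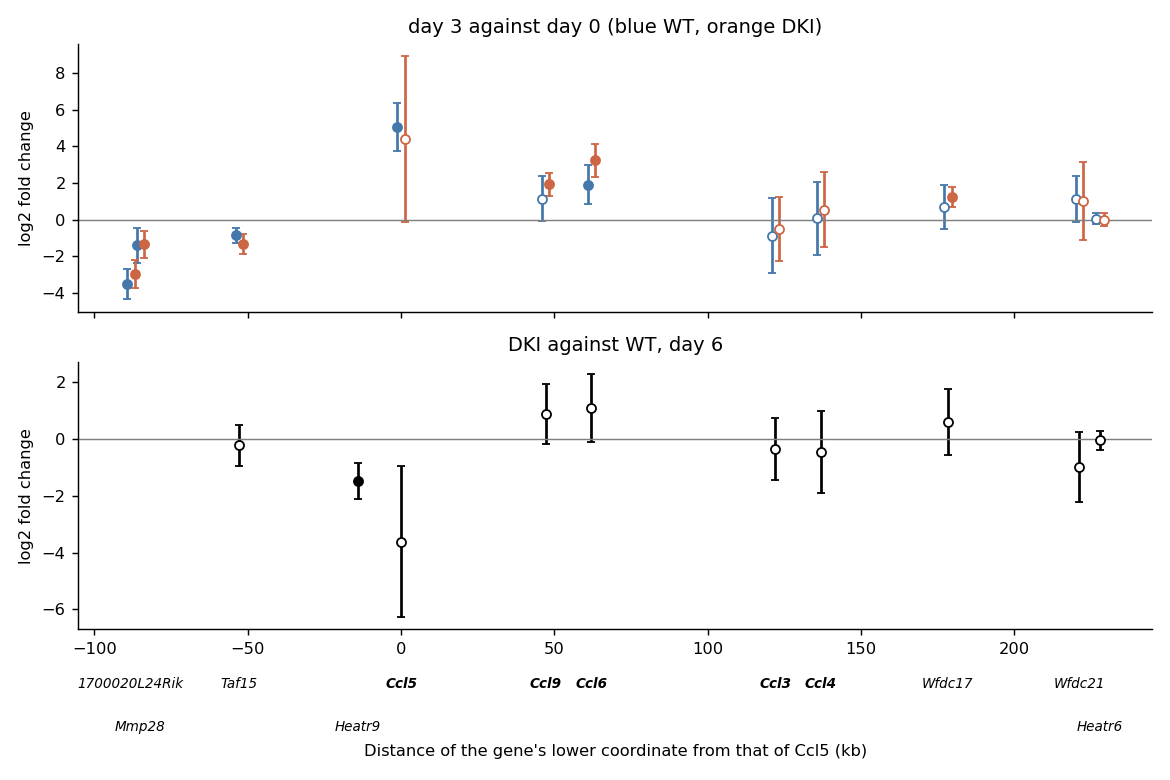
Log2 fold change with 95% interval (limma) of the 5 genes (bold) and of their neighbours with a mean above 2 RPKM in a group compared, by distance in kb of the gene's lower coordinate from that of Ccl5. Filled points passed the adjusted test and the fold limit; the upper panel shows day 3 against day 0 in WT (blue) and DKI (orange), and the lower panel shows DKI against WT on day 6, where Heatr9 at -1.47 is the one filled point.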

How the data were processed

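RNA-seq was read from 18 libraries of Ly6C+ CCR2+ monocytes and GM-CSF cultures in 6 groups of 3, grouped by genotype and day as given in their labels. The deposited RPKM values were made by the authors. Subread, featureCounts and the mm10 build are named in the submitters' processing notes, without versions. Mapped reads per library were recovered from genes at 1 read (29.5 to 43.2 M), and 98 of 100 other low values came out whole within 0.02 reads. Read counts cover counting error only.

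RPKM values were tested with limma 3.58.1 in R 4.3.3 (eBayes with trend) on log2(RPKM + 1), for genes with a mean above 2 RPKM in a group compared, with Benjamini-Hochberg adjustment over all genes fitted, and called at adjusted p under 0.05 and a fold above 1.5. The fit was tested on simulated data. For DKI against WT on day 3 it recovered 38 of 100 genes changed by 1 on the log2 scale and 84 of 100 changed by 2. Unchanged genes made up 10 of its 132 calls. For day 3 against day 0 in WT, 42 and 88 of 100 were recovered, with 14 unchanged genes in 144 calls. In the interaction of day 6 with day 3, 29 and 74 of 100 were recovered, with 3 unchanged genes in 106 calls. Only libraries of the groups compared entered each fit. Pairing by replicate number was checked as the correlation of deviations from group means: every pair was over 0.1 for DKI against WT on days 0, 3 and 6 (mean r 0.80, 0.26 and 0.39) and for day 6 against day 3 (0.36 in WT, 0.56 in DKI), and not for day 3 against day 0 (-0.08 and 0.05). This pairing comes from the data, since no label says what a number marks.

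The 5 genes, the lists of receptors, ligands, signalling genes, processing genes, neighbours and markers, and the comparisons were chosen with earlier results of these data known. Genes outside the 5 were named where they passed the test, belong to those lists or were the 3 nearest in pattern. Alternatives were a pseudocount of 0.1, no filter, median centring, quantile normalization, all 18 libraries in one fit, the replicate block, eBayes without trend, each library left out, the later-year libraries alone and, added after the data were seen, voom on recovered reads. One item is not reported here.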

Additional observations from a re-analysis of the deposited data

Results flagged for a closer look

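Among the other CCL ligands named above and the neighbours, Ccl2, Ccl7, Ccl17, Ccl22 and Heatr9 had a genotype difference that changed with the day, by the interaction in limma's fit across all genes, which called 2.91% of all genes at day 3 and 2.8% at day 6. Of the 16 other CCL ligands, 3 were called higher and 2 lower in that interaction at day 3, and 2 higher and 2 lower at day 6. The difference (DKI minus WT, log2) grew from day 0 by 5.53 at day 3 and 4.90 at day 6 for Ccl2 (adjusted p = 0.0169 and 0.0174) and by 7.22 and 6.94 for Ccl7 (adjusted p = 0.0158 and 0.0174). For Ccl17 it changed by -7.29 and -6.89 (adjusted p = 0.00142 and 0.00376) and for Ccl22 by -4.45 and -4.26 (adjusted p = 0.0203 and 0.00156). For Heatr9, the neighbour of Ccl5, it changed by -1.45 from day 0 to day 6 (adjusted p = 0.0297). Heatr9 passed the filter on low values there only through WT MDCs of day 6, where it was high. With 3 libraries a group, no test for a single outlying library was run.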

How the results depend on the processing

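A pseudocount of 0.1, no filter on low values, eBayes without trend and, added after the data were seen, voom on recovered reads kept the direction and the call of all 50 values (5 genes in 10 comparisons). The replicate block also kept all 50: with it, as without it, 2 of the 5 genes were called from day 0 to day 3 in each genotype and 0 in the other 8 comparisons. Median centring and quantile normalization turned the difference of Ccl9 on day 0 (-0.00428 and -0.017 on the log2 scale) and the interaction of day 6 with day 0 of Ccl4 (0.11 and 0.091). The later-year libraries alone turned the genotype difference of day 3 for Ccl3 (-0.55) and Ccl4 (-0.81), the change from day 3 to day 6 of Ccl3 in WT (-0.25), of Ccl9 in WT (-0.28) and of Ccl9 in DKI (-0.10), the interaction of day 3 with day 0 for Ccl3 (-0.21) and Ccl4 (-0.40), and that of day 6 with day 0 for Ccl3 (-0.72). With all 18 libraries in one fit, Ccl5 from day 0 to day 3 in DKI was called (adjusted p = 0.028 by limma). The cause of these changes was not tested.

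With each library left out in turn, the count of the 5 genes called in the interaction of day 6 with day 0 ranged from 0 to 1 (Ccl5, without DKI replicate 1 of day 6), and the counts from day 0 to day 3 from 2 to 3 in each genotype. The log2 values that turned sign in at least 1 such fit had these ranges: between genotypes on day 0, Ccl3 -1.11 to 0.50, Ccl4 -1.13 to 0.62, Ccl6 -0.36 to 0.12 and Ccl9 -0.057 to 0.048; between genotypes on day 3, Ccl3 -0.79 to 0.49, Ccl4 -0.73 to 0.50 and Ccl5 -3.33 to 0.53; between genotypes on day 6, Ccl4 -1.002 to 0.046; from day 0 to day 3 in WT, Ccl4 -0.66 to 0.87. In the others they were, from day 0 to day 3 in DKI, Ccl3 -1.36 to 0.049 and Ccl4 -0.48 to 1.27; from day 3 to day 6 in WT, Ccl3 -0.72 to 0.58 and Ccl9 -0.63 to 0.38; from day 3 to day 6 in DKI, Ccl3 -0.53 to 0.069, Ccl5 -0.52 to 3.34 and Ccl9 -0.22 to 0.42; in the interaction of day 3 with day 0, Ccl3 -0.46 to 1.15, Ccl4 -0.54 to 1.21 and Ccl5 -3.09 to 0.77; in the interaction of day 6 with day 0, Ccl3 -0.84 to 0.77 and Ccl4 -1.06 to 0.69; in the interaction of day 6 with day 3, Ccl3 -0.85 to 0.45, Ccl4 -1.08 to 0.28, Ccl6 -0.55 to 0.33 and Ccl9 -0.28 to 0.74. None of these values that turned was called. The range of Ccl5 between genotypes on day 6 was -4.72 to -2.38 (adjusted p = 0.0524 to 0.258 by limma). Ccl5 rested on 29 to 76 reads a library on day 0, and its log2 SD was 0.30 (WT) and 0.48 (DKI) there, against 4.22 and 2.35 in DKI on days 3 and 6.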
